A study of Rattus norvegicus with 6 samples.

Results

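Transcript levels of 42 genes that build, cut, cap and steer actin filaments were followed in cultured rat hippocampal neurons in which cyclin Y (CCNY), a cyclin that is expressed in post-mitotic neurons, had been raised or lowered. The genes were chosen by name: 2 cytoplasmic actins, 6 nucleation-promoting factors, 9 genes of the Arp2/3 complex, 4 severing or depolymerising factors, 4 monomer-binding proteins, 6 factors of barbed-end capping, elongation and side binding, 7 kinases, and Rac1, Cdc42, Rhoa and Rhob. Of these, 41 were found among the 17066 genes of the expression table, and 39 reached a level of at least 1 FPKM (fragments mapped per kilobase of transcript, scaled to the size of the library) in 2 or more libraries and were tested. Wasf3 was not analysed here, and Wasf1 and Rhoa were listed at 0 in all 6 libraries.

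The neurons came from hippocampi of Sprague-Dawley embryos (embryonic day 18) and received, on day 5 or 6 in vitro, a lentivirus carrying EGFP alone (EGFP), CCNY-WT-EGFP (CCNY-WT, overexpression) or CCNY-shRNA-EGFP (CCNY-shRNA, knockdown). All 3 groups therefore carried the FUGW lentiviral vector and EGFP, and the control received EGFP without a non-targeting shRNA. RNA was taken on day 14, and 2 poly-A RNA-seq libraries were made for each group. The labels do not say that the 2 libraries of a group came from separate cultures, so p-values measure the spread between these libraries, which may be technical.

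Actin is a soluble monomer that assembles into filaments with a fast-growing barbed end and a slow-growing pointed end. In neurons the filaments fill dendritic spines and growth cones, where the Arp2/3 complex starts branches, formins and Ena/VASP proteins lengthen filaments, capping protein stops growth, and cofilins and gelsolin cut or dismantle them. Rac1 and Cdc42 switch on the WAVE and N-WASP proteins that activate Arp2/3, while PAK, ROCK and LIM kinases pass the signal on to cofilin and myosin, and enlargement of spines during synaptic potentiation depends on this machinery.

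The promoters of 3 genes are shown for a match of letters or for a transcript level: Actg1, whose window holds the letters of a CArG box, and Capzb and Gsn, which had the smallest p-values of the list in CCNY-shRNA against EGFP. They are the 150 bases before the annotated start in RefSeq (GRCr8), with the CArG box in capitals. The Actg1 sequence covers chr10:106120952-106121101 on the minus strand, that of Capzb chr5:156718771-156718920 on the plus strand and that of Gsn chr3:39008782-39008931 on the plus strand.
Actg1: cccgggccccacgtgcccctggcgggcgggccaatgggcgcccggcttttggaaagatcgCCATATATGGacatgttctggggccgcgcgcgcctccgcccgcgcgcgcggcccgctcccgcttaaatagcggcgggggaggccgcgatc
Capzb: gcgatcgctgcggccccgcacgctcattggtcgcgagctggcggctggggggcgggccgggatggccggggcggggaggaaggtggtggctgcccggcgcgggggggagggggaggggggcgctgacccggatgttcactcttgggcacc
Gsn: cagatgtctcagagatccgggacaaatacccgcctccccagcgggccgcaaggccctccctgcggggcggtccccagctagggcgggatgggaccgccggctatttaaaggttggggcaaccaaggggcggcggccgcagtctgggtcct

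The CArG box of Actg1 began 90 bases before the start. Windows from 250 bases before to 50 bases after the start were found for 39 of the 42 genes, in 40 windows, and those of Actb, Arpc1a and Rac1 were not used here. A CArG box, CC followed by A or T at each of the next 6 positions and then GG, was searched on both strands and lay in 1 of the 40 windows (2.5%), that of Actg1, against 1.64% of 33469 windows of all genes. The letters TATAAA, on either strand, were in 0 of the 40 windows and in 14.2% of all windows. A match is only a match of letters, and the annotated start need not be the one used in these neurons.

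The actin genes were among the most abundant transcripts of these neurons. In EGFP, Actg1 (γ-actin) stood at 2517 and 2482 FPKM and Actb (β-actin) at 2105 and 2051 FPKM. Tmsb10 (thymosin β10, which sequesters actin monomers) followed at 1501 and 1540.0 FPKM and Cfl1 (cofilin-1, which severs filaments) at 1063 and 1062 FPKM. These 4 genes were among the 41 genes of the whole table with a mean of at least 1000 FPKM in EGFP, and 20 of the 39 genes tested had a mean of at least 100 FPKM. The median of the 39 was 106 FPKM, against 17.0 FPKM for all genes tested.

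Levels differed strongly between close relatives. In EGFP, Tmsb10 had a mean of 1520.45 FPKM and its relative Tmsb4x (thymosin β4) of 32.5 FPKM. How reads were assigned to these thymosin genes was not tested, so their true ratio is uncertain. Within the Arp2/3 complex, the means per length ran from 339.7 FPKM for Actr2 (Arp2) through 209 for Arpc1a, 203 for Arpc3, 183 for Arpc2, 163 for Actr3 (Arp3), 154 for Arpc4 and 129 for Arpc5 to 84.8 for Arpc5l. The alternative subunit Arpc1b was at 2.02 FPKM, beside 209 FPKM for Arpc1a. The libraries of Arpc1a and Arpc3 overlapped, while those of the other neighbours in this order did not. Among the nucleation-promoting factors tested, Cyfip2 led with 95.04 FPKM, followed by Cyfip1 with 41.5, Wasl (N-WASP) with 14.8 and Wasf2 (WAVE2) with 1.78. The 0 of Wasf1 (WAVE1) in every library, like that of Rhoa, may be a failed estimate and gives no level. With Wasf3 not analysed, the summed level of the WAVE genes is unknown. The kinases lay in a narrow range, from 20.9 FPKM for Pak2 to 58.2 FPKM for Pak1.

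**Figure D1:**
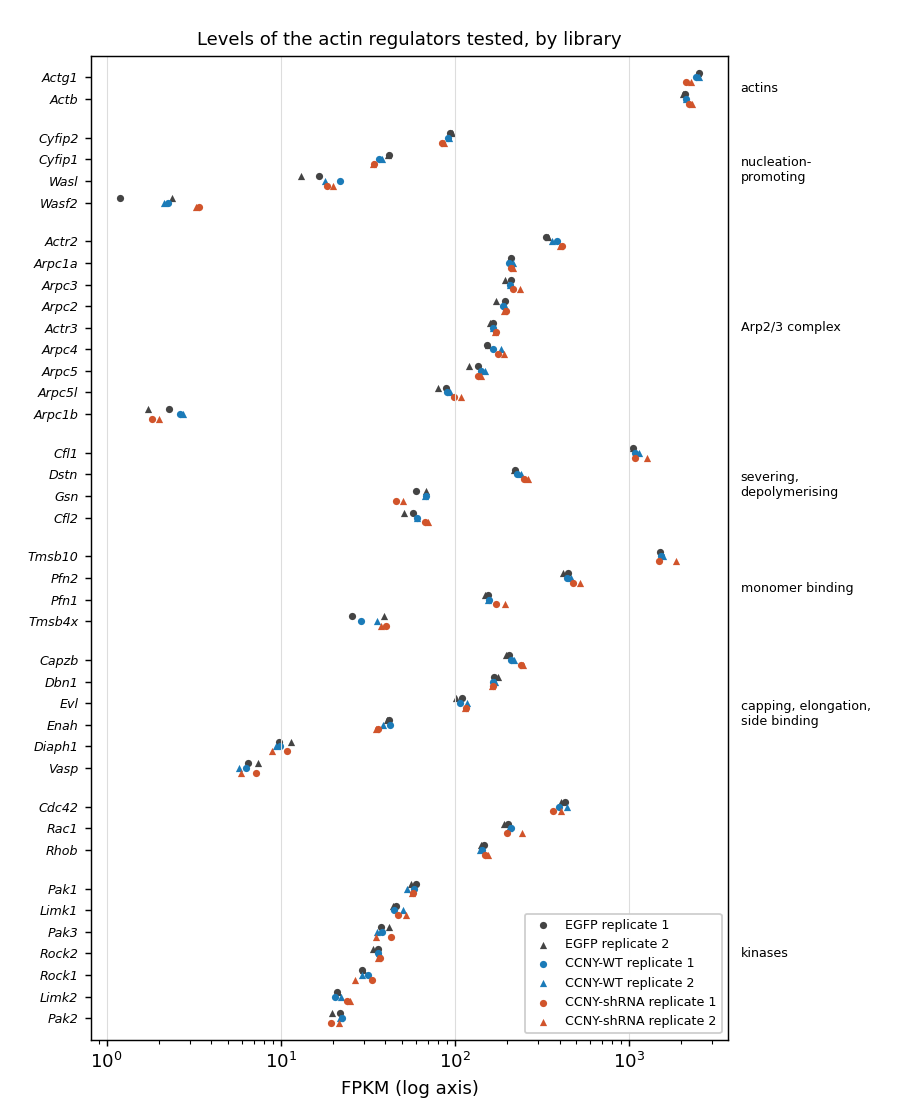
FPKM of the 39 actin regulators tested, on a log axis, grouped by role and ordered by the EGFP mean. Each point is 1 library (circles replicate 1, triangles replicate 2; grey EGFP, blue CCNY-WT, orange CCNY-shRNA). The levels span Wasf2, with an EGFP mean of 1.78 FPKM, to Actg1, with 2499.9 FPKM, and the 6 libraries lie close together for most genes.

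Ccny itself was at 43.1 and 42.3 FPKM in EGFP, at 108 and 109 FPKM in CCNY-WT and at 5.98 and 6.19 FPKM in CCNY-shRNA, in the order that the labels give. The table holds no read counts, so the absolute depth is unknown. Relative to EGFP replicate 1 the depth was between 0.818 and 1.32. The library at 1.32, CCNY-WT replicate 1, held the gene Bc1 at 97547.9 FPKM, against 0 in every other library, and had the highest summed FPKM (645435). Its actin regulators summed to 11431 FPKM, within the range of 11199 to 12332 over all libraries. For genes of at least 100 FPKM, the 2 libraries of EGFP, of CCNY-WT and of CCNY-shRNA differed with a robust SD of 0.0911, 0.0739 and 0.134 in log2. The summed FPKM of 10 neuron markers was between 4669.6 and 4819 in all libraries. That of 10 oligodendrocyte markers was between 47.5 and 57.7, and that of 10 microglia markers between 0.407 and 1.34. Aif1 and Cx3cr1 of the microglia list and Sox10 of the oligodendrocyte list were listed at 0, which may be failed estimates. The 9 astrocyte markers in the table summed to 540.3 and 580.3 FPKM in EGFP, 573 and 567 FPKM in CCNY-WT, and 472 and 545 FPKM in CCNY-shRNA. In such bulk samples, fewer cells of a type and less RNA per cell cannot be told apart.

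None of the 39 genes passed the adjusted threshold of limma in CCNY-shRNA, where 0.746% of all 10188 genes tested did. At an unadjusted p under 0.05, 12 had a higher level in CCNY-shRNA than in EGFP (30.8%), against 9.2% of all genes tested, and 4 were lower (10.3%), against 9.36%. The 12 were Wasl, Wasf2, Arpc3, Arpc4, Arpc5l, Actr2, Cfl2, Dstn, Pfn1, Pfn2, Capzb and Limk2, and the 4 were Gsn, Cyfip1, Cyfip2 and Enah. Abundant genes as a whole were past this threshold more often: of the 1130 genes with at least 100 FPKM in EGFP, 16.9% were higher and 11.8% lower, beside 7 and 0 of the 20 actin regulators of that level. Leaving out 1 library at a time gave 8 to 16 genes higher and 3 to 5 lower.

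The median log2 change of the 39 genes from EGFP to CCNY-shRNA was 0.11 on the scale of log2 FPKM floored to 1, against 0.00 for all genes tested and 0.03 for those of at least 100 FPKM. It was 0.05 without EGFP replicate 2 and 0.06 after quantile normalization. Of the 39 genes, 26 had a positive change, and in 19 (48.7%) both CCNY-shRNA libraries lay above both EGFP libraries, against 23.9% of all genes tested. In 6 (15.4%) both lay below, against 24.5%, and these 2 shares of all genes were not matched for level. Only the sizes of Wasl, Wasf2, Cfl2 and Gsn reached 0.33, the study's limit for this comparison. Of all genes tested, 5.52% reached it upwards and 7.59% downwards. Without EGFP replicate 2 it was reached by 2 of the 39 genes. The study had already listed Gsn as lower in CCNY-shRNA, from the same libraries at this limit, so its passing was known beforehand. The study also measured Gsn by quantitative real-time PCR (qRT-PCR) and reported it as regulated by CCNY. Those measurements were not used here.

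**Figure D2:**
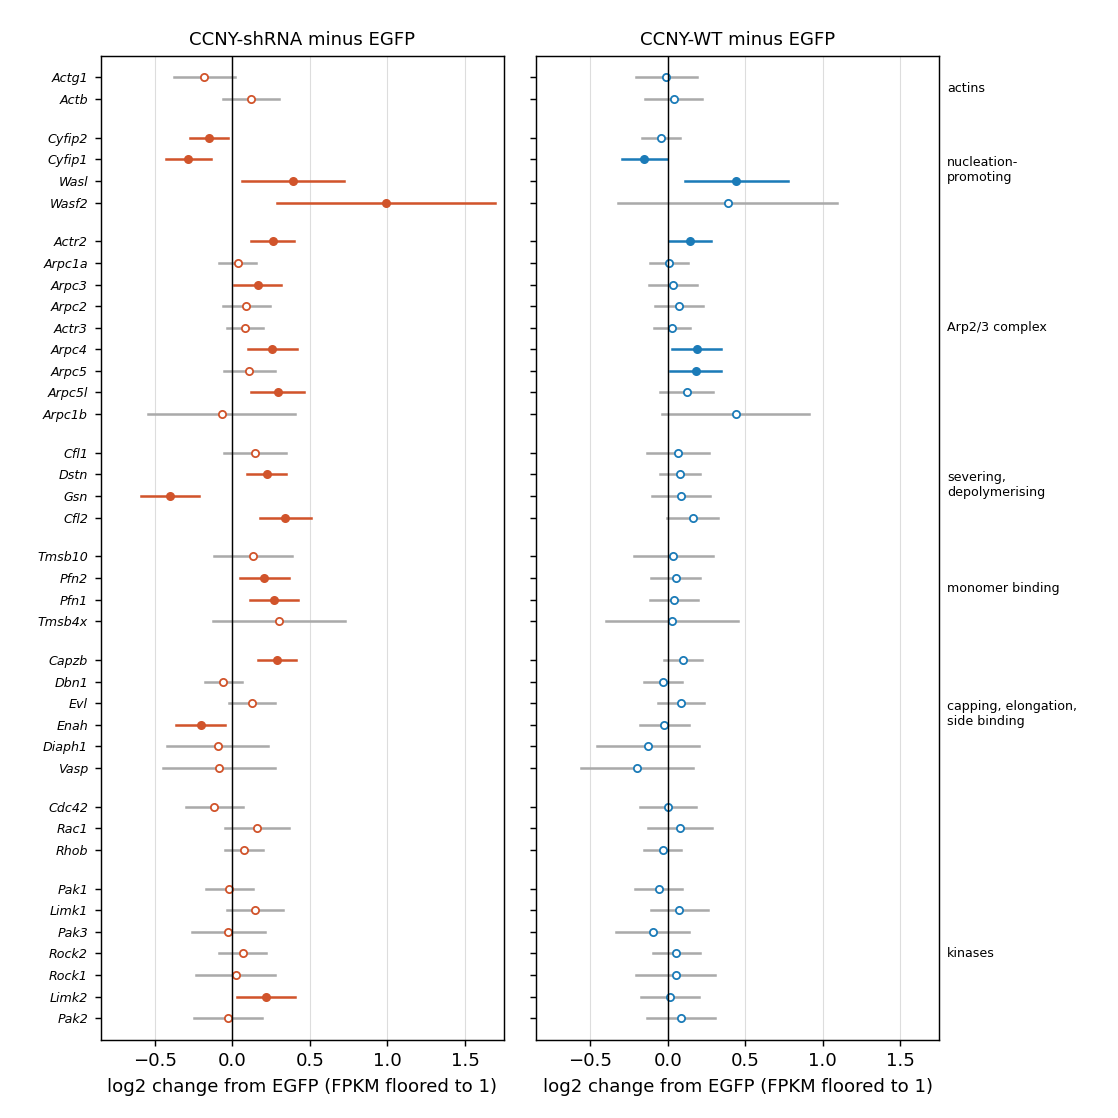
Log2 change of each actin regulator tested from EGFP, in CCNY-shRNA (left) and CCNY-WT (right), with the 95% confidence interval of limma. Filled points have an unadjusted p under 0.05 and open points do not; no gene passed the adjusted threshold. In CCNY-shRNA, 16 intervals leave out 0, of which 12 lie above it, and in CCNY-WT 5 do, of which 4 lie above it.

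**Figure D3:**
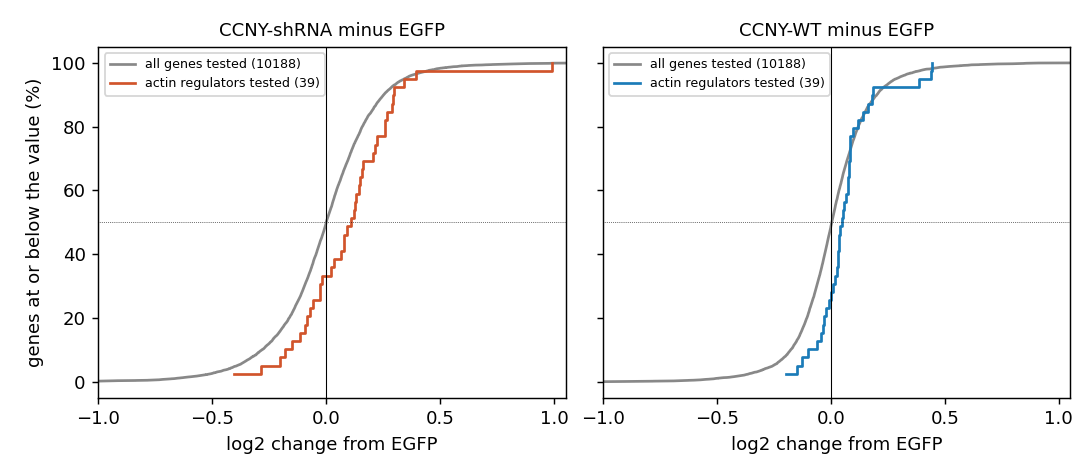
Cumulative distribution of the log2 change from EGFP for the 39 actin regulators tested and for all 10188 genes tested, in CCNY-shRNA (left) and CCNY-WT (right); the dotted line marks the median. The curve of the actin regulators crosses the median at 0.11 in CCNY-shRNA and at 0.05 in CCNY-WT, that of all genes at 0.00 in both.

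The 2 actins went in opposite directions in CCNY-shRNA. Actb was at 2105 and 2051 FPKM in EGFP, 2135 and 2130.3 FPKM in CCNY-WT, and 2206 and 2315 FPKM in CCNY-shRNA. Actg1 was at 2517 and 2482 FPKM in EGFP, 2434 and 2532 FPKM in CCNY-WT, and 2118 and 2291 FPKM in CCNY-shRNA. For Actb both CCNY-shRNA libraries lay above both EGFP libraries, and for Actg1 both lay below, but neither difference passed a test: the log2 change was 0.12 (SE 0.08, adjusted p = 0.449) for Actb and -0.18 (SE 0.08, adjusted p = 0.30) for Actg1.

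The balance of the 2 actins within each library does not depend on how the libraries were scaled. Actb made up 45.5% and 45.3% of the summed FPKM of both actins in EGFP, 46.7% and 45.7% under CCNY-WT, and 51.0% and 50.3% under CCNY-shRNA. Both knockdown libraries thus lay apart from the other 4, which were close to each other. The mean share in CCNY-shRNA was 5.25 percentage points above EGFP, and between 4.86 and 5.63 points with 1 library left out; in CCNY-WT it was 0.816 points above EGFP, and between 0.297 and 1.34 points. Both actins together had 4623 and 4533 FPKM in EGFP, 4568 and 4662 FPKM in CCNY-WT, and 4324 and 4606 FPKM in CCNY-shRNA, so the groups overlapped. With 2 libraries against 2, an exact two-sided permutation test cannot go below p = 0.333, and no test was run on shares. The coding sequences of the actin genes are nearly identical and the genome holds pseudogenes of them, so how reads were assigned between Actb and Actg1 is uncertain; its part in the shift was not tested.

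Upstream of the Arp2/3 complex, the nucleation-promoting factors split. Wasl, which couples Cdc42 to Arp2/3, was at 16.5 and 13.1 FPKM in EGFP, 22.1 and 18.03 FPKM in CCNY-WT, and 18.5 and 20.1 FPKM in CCNY-shRNA. All 4 libraries with altered CCNY lay above both controls. Its log2 change was 0.39 (SE 0.14, unadjusted p = 0.0256, adjusted p = 0.20) in CCNY-shRNA and 0.44 (SE 0.14, unadjusted p = 0.0151, adjusted p = 0.725) in CCNY-WT. Wasf2, a WAVE protein that acts downstream of Rac1, was at 1.19 and 2.37 FPKM in EGFP, 2.26 and 2.13 FPKM in CCNY-WT, and 3.41 and 3.27 FPKM in CCNY-shRNA. Both knockdown libraries were the highest, but the 2 EGFP libraries differed from each other as much as the groups did, at a level close to the floor of 1, and the log2 change of 0.99 (SE 0.30) had an adjusted p of 0.151.

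Both CYFIP genes, whose products sit in the WAVE complex and also bind the translational regulator FMRP, were lower in CCNY-shRNA. Cyfip1 was at 41.7 and 41.2 FPKM in EGFP, 36.5 and 38.2 FPKM in CCNY-WT, and 34.3 and 33.7 FPKM in CCNY-shRNA. The 3 groups did not overlap, with EGFP highest and CCNY-shRNA lowest. The log2 change was -0.29 (SE 0.06, unadjusted p = 0.00192, adjusted p = 0.0828) in CCNY-shRNA and -0.15 (SE 0.06, unadjusted p = 0.0434, adjusted p = 0.729) in CCNY-WT. Cyfip2 was at 93.7 and 96.4 FPKM in EGFP, 91.3 and 93.0 FPKM in CCNY-WT, and 84.2 and 87.0 FPKM in CCNY-shRNA, in the same order without overlap, with a log2 change of -0.15 (SE 0.05, adjusted p = 0.183) in CCNY-shRNA. Cyfip1 made up 30.8% and 29.9% of the pair in EGFP, 28.6% and 29.1% under CCNY-WT, and 28.9% and 27.9% under CCNY-shRNA.

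The genes of the Arp2/3 complex, which starts new branches on existing filaments, lay slightly above EGFP in both conditions. In CCNY-shRNA 8 of the 9 had a positive change, with a median log2 change of 0.11, and in 6 both libraries were above both controls, as were those of 23.9% of all genes tested. In CCNY-WT all 9 did, with a median of 0.12, and again in 6 both libraries were above both controls, beside 20.3% of all genes. Both conditions were set against the same 2 EGFP libraries, and EGFP replicate 2 was the lower of the 2 controls for 7 of the 9 genes. The median of the 9 genes relative to the EGFP mean was 0.05 and -0.05 for the EGFP libraries, 0.09 and 0.09 for those of CCNY-WT, and 0.09 and 0.14 for those of CCNY-shRNA.

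Actr2, which with Actr3 forms the template for the new filament, was at 337 and 343 FPKM in EGFP, 389 and 362 FPKM in CCNY-WT, and 413 and 400.4 FPKM in CCNY-shRNA. The 3 groups did not overlap, with EGFP lowest. The log2 change was 0.26 (SE 0.06, unadjusted p = 0.00242, adjusted p = 0.0855) in CCNY-shRNA and 0.14 (SE 0.06, unadjusted p = 0.0422, adjusted p = 0.729) in CCNY-WT. Its partner Actr3 was at 166 and 160.0 FPKM in EGFP, 166 and 166 FPKM in CCNY-WT, and 173 and 171 FPKM in CCNY-shRNA, a log2 change of 0.08 (SE 0.05) in the knockdown. Actr2 thus took 67.0% and 68.2% of the FPKM of the pair in EGFP, 70.0% and 68.5% under CCNY-WT, and 70.4% and 70.1% under CCNY-shRNA.

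Among the small subunits, Arpc4 was at 153 and 155 FPKM in EGFP, 167 and 185 FPKM in CCNY-WT, and 176 and 193 FPKM in CCNY-shRNA. Both conditions were above the control, with log2 changes of 0.26 (SE 0.07, adjusted p = 0.120) in CCNY-shRNA and 0.19 (SE 0.07, adjusted p = 0.725) in CCNY-WT, and overlapped each other. The alternative subunits Arpc5 and Arpc5l differed between the conditions. Arpc5 was at 136 and 121 FPKM in EGFP, 141 and 150.2 FPKM in CCNY-WT, and 135 and 142 FPKM in CCNY-shRNA, so that only CCNY-WT lay apart from EGFP, with a log2 change of 0.18 (SE 0.07, adjusted p = 0.725). Arpc5l was at 89.2 and 80.4 FPKM in EGFP, 90.1 and 94.2 FPKM in CCNY-WT, and 98.8 and 109 FPKM in CCNY-shRNA. The 3 groups did not overlap, and the log2 change in CCNY-shRNA was 0.29 (SE 0.07, adjusted p = 0.104). Arpc5l made up 39.6% and 39.9% of the pair in EGFP, 39.0% and 38.5% under CCNY-WT, and 42.2% and 43.4% under CCNY-shRNA, so that the 2 conditions lay on either side of the control.

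Arpc1b, the scarce alternative to Arpc1a, was at 2.30 and 1.73 FPKM in EGFP, 2.65 and 2.75 FPKM in CCNY-WT, and 1.82 and 1.99 FPKM in CCNY-shRNA. It was highest in both overexpressing libraries, and knockdown and control overlapped. The log2 change was 0.44 (SE 0.21, unadjusted p = 0.0662, adjusted p = 0.745) in CCNY-WT and -0.07 (SE 0.21, adjusted p = 0.899) in CCNY-shRNA, the latter turning to 0.13 without EGFP replicate 1, and -0.51 (SE 0.21, unadjusted p = 0.0394, adjusted p = 0.386) from CCNY-WT to CCNY-shRNA. Arpc1a stayed between 205 and 217 FPKM in all libraries. Of the remaining subunits, Arpc2 had a log2 change of 0.09 (SE 0.07) and Arpc3 of 0.16 (SE 0.07, unadjusted p = 0.0410) in CCNY-shRNA.

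**Figure D4:**
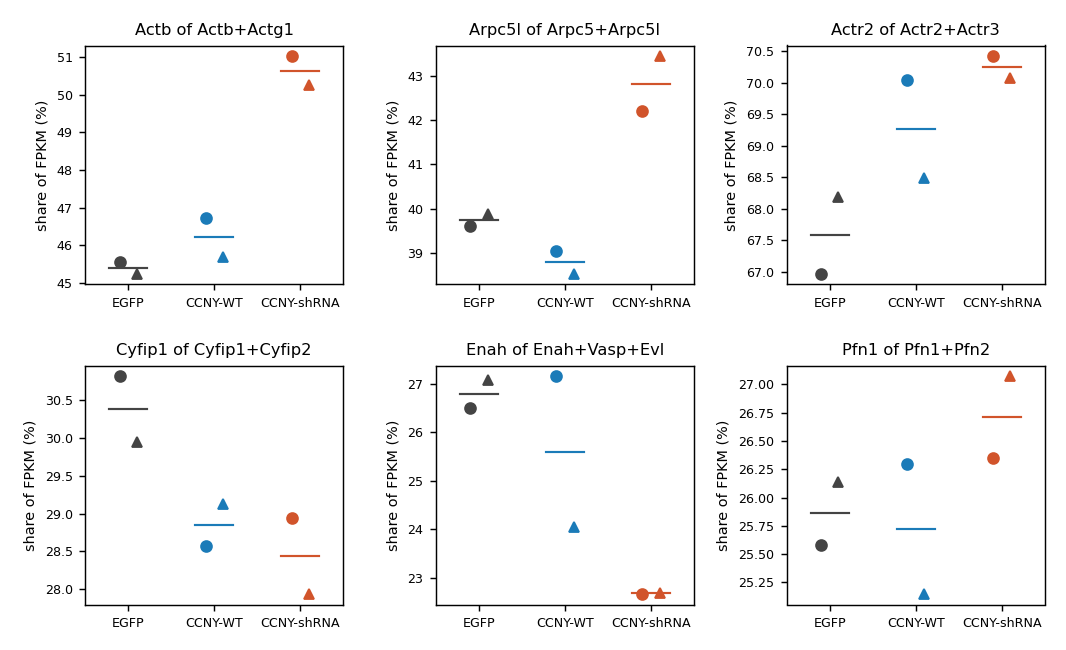
Share of the summed FPKM of a pair or family of relatives that 1 gene carries in each library, in percent, with lines at the group means (circles replicate 1, triangles replicate 2; the vertical axes do not start at 0). The share of Actb lies between 45.3% and 46.7% in EGFP and CCNY-WT and at 50.3% and 51.0% in CCNY-shRNA. Arpc5l and Enah are also set apart in CCNY-shRNA. So, by a narrow margin, are Actr2 and Pfn1, with mean shares 2.67 and 0.849 points above EGFP.

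The factors that cut or dismantle filaments differed in direction in CCNY-shRNA, with Gsn lower and the other 3 higher. Gsn (gelsolin, which severs filaments and caps their barbed ends in response to calcium) was at 59.7 and 68.5 FPKM in EGFP, 68.5 and 67.1 FPKM in CCNY-WT, and 46.1 and 50.7 FPKM in CCNY-shRNA. Both knockdown libraries lay below the other 4. The log2 change was -0.40 (SE 0.08, 95% interval -0.59 to -0.22, unadjusted p = 0.00116, adjusted p = 0.0717) against EGFP and -0.49 (SE 0.08, unadjusted p = 0.000346, adjusted p = 0.0820) against CCNY-WT. Between CCNY-WT and EGFP it was 0.08 (SE 0.08, adjusted p = 0.880), turning to -0.01 without EGFP replicate 1.

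Gsn is also expressed by glia, and some glial markers were lower in the same libraries. Of the 9 astrocyte markers tested, 7 had a negative change in CCNY-shRNA (median log2 change -0.20), none passed the adjusted threshold, and 3 (Slc1a2, Slc1a3 and Fgfr3) were lower at an unadjusted p under 0.05, beside 9.36% of all genes tested. The 10 markers of the oligodendrocyte lineage summed to 56.0 and 55.0 FPKM in EGFP, 57.7 and 52.9 FPKM in CCNY-WT, and 49.5 and 47.5 FPKM in CCNY-shRNA. The part of glial cells in the lower Gsn level was not tested.

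The 3 members of the cofilin family, which turn over ageing filaments, lay above the control in CCNY-shRNA. Cfl2 was at 57.8 and 51.2 FPKM in EGFP, 60.9 and 60.7 FPKM in CCNY-WT, and 67.3 and 70.6 FPKM in CCNY-shRNA. The 3 groups did not overlap, with the knockdown highest and a log2 change of 0.34 (SE 0.07, unadjusted p = 0.00146, adjusted p = 0.0769). Dstn (destrin) was at 223 and 218 FPKM in EGFP, 228 and 239 FPKM in CCNY-WT, and 251 and 264 FPKM in CCNY-shRNA, in the same order, with a log2 change of 0.22 (SE 0.05, unadjusted p = 0.00398, adjusted p = 0.101). The far more abundant Cfl1 was at 1063 and 1062 FPKM in EGFP, 1085 and 1139.8 FPKM in CCNY-WT, and 1089 and 1270.0 FPKM in CCNY-shRNA, a log2 change of 0.15 (SE 0.09, adjusted p = 0.406) that was smaller than the difference between the 2 knockdown libraries.

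All 4 monomer-binding genes had a positive change in CCNY-shRNA (median log2 change 0.24) and in CCNY-WT (median 0.04). Pfn1 (profilin-1, which delivers monomers to growing barbed ends) was at 154 and 149 FPKM in EGFP, 157 and 155 FPKM in CCNY-WT, and 172 and 194 FPKM in CCNY-shRNA. The knockdown libraries were the highest, with a log2 change of 0.27 (SE 0.07, unadjusted p = 0.00410, adjusted p = 0.102) against EGFP and 0.23 (SE 0.07, unadjusted p = 0.00987, adjusted p = 0.266) against CCNY-WT. Pfn2, the main profilin of neurons, was at 449 and 421 FPKM in EGFP, 439 and 463 FPKM in CCNY-WT, and 480.3 and 523 FPKM in CCNY-shRNA, a log2 change of 0.21 (SE 0.07, adjusted p = 0.174).

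The thymosins, which hold monomers in reserve, differed widely between replicates in some groups, Tmsb10 in CCNY-shRNA and Tmsb4x in EGFP and CCNY-WT. Tmsb10 was at 1501 and 1540.0 FPKM in EGFP, 1535 and 1582 FPKM in CCNY-WT, and 1486 and 1868 FPKM in CCNY-shRNA, so the 2 knockdown libraries lay on either side of the other 4. Tmsb4x was at 25.7 and 39.2 FPKM in EGFP, 29.1 and 36.0 FPKM in CCNY-WT, and 40.4 and 37.8 FPKM in CCNY-shRNA. Both treated groups overlapped EGFP, while both CCNY-shRNA libraries lay above both of CCNY-WT. Its log2 change of 0.30 (SE 0.18, adjusted p = 0.424) in CCNY-shRNA against EGFP was 0.00 without EGFP replicate 1, when its sign reversed.

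Capzb, the β subunit of the capping protein that stops growth at barbed ends, had the smallest p-value of the list in CCNY-shRNA against EGFP. It was at 205 and 196 FPKM in EGFP, 211 and 218 FPKM in CCNY-WT, and 241 and 248 FPKM in CCNY-shRNA. The 3 groups did not overlap, with EGFP lowest and the knockdown highest. The log2 change was 0.29 (SE 0.05, 95% interval 0.16 to 0.41, unadjusted p = 0.000728, adjusted p = 0.0600) in CCNY-shRNA, 0.10 (SE 0.05, adjusted p = 0.782) in CCNY-WT and 0.19 (SE 0.05, unadjusted p = 0.00787, adjusted p = 0.260) from CCNY-WT to CCNY-shRNA.

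The Ena/VASP proteins, which protect barbed ends from capping and speed elongation, shifted among themselves. Enah (Mena) was at 41.8 and 40.7 FPKM in EGFP, 42.4 and 38.9 FPKM in CCNY-WT, and 36.2 and 35.4 FPKM in CCNY-shRNA, lowest in both knockdown libraries, with a log2 change of -0.20 (SE 0.07, unadjusted p = 0.0174, adjusted p = 0.174). Evl was at 109 and 102 FPKM in EGFP, 107 and 117 FPKM in CCNY-WT, and 116 and 115 FPKM in CCNY-shRNA, a log2 change of 0.13 (SE 0.06, adjusted p = 0.327). The summed FPKM of Enah, Vasp and Evl lay between 150.2 and 162 in all libraries. Enah made up 26.5% and 27.1% of it in EGFP, 27.2% and 24.0% under CCNY-WT, and 22.7% and 22.7% under CCNY-shRNA, and the mean share of Evl was 4.48 points higher in CCNY-shRNA than in EGFP.

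Vasp was at 6.49 and 7.39 FPKM in EGFP, 6.35 and 5.73 FPKM in CCNY-WT, and 7.18 and 5.93 FPKM in CCNY-shRNA. The overexpressing libraries lay just below the control, with the lowest log2 change of the list in CCNY-WT, -0.20 (SE 0.16, adjusted p = 0.847). The formin Diaph1, which lengthens unbranched filaments downstream of RhoA, was at 9.80 and 11.4 FPKM in EGFP, 9.90 and 9.47 FPKM in CCNY-WT, and 10.9 and 8.96 FPKM in CCNY-shRNA, and the knockdown overlapped the control. Its log2 change was -0.13 (SE 0.14) in CCNY-WT and -0.09 (SE 0.14) in CCNY-shRNA. Dbn1 (drebrin, a side-binding protein of dendritic spines) stayed between 164 and 176 FPKM, with a log2 change of -0.06 (SE 0.05, 95% interval -0.18 to 0.06) in CCNY-shRNA.

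Rac1, Cdc42 and Rhob had no unadjusted p under 0.05 in any comparison. Cdc42 was at 431 and 410.2 FPKM in EGFP, 399 and 444 FPKM in CCNY-WT, and 367 and 411 FPKM in CCNY-shRNA, and the groups overlapped. Rac1 was at 202 and 192 FPKM in EGFP, 211 and 205 FPKM in CCNY-WT, and 199 and 242 FPKM in CCNY-shRNA. Rhob was between 140.0 and 156 FPKM in all libraries. In CCNY-shRNA the log2 changes were -0.12 (SE 0.08, adjusted p = 0.471) for Cdc42, 0.16 (SE 0.09, adjusted p = 0.386) for Rac1 and 0.08 (SE 0.05, adjusted p = 0.474) for Rhob. Rhoa is used by nearly all cells, so its 0 in every library may be a failed estimate in the table and gives no level.

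Of the 7 kinases, 4 had a positive change in CCNY-shRNA (median of the 7, 0.02) and 5 in CCNY-WT (median 0.05). Limk2, which phosphorylates and inactivates cofilin, was at 21.0 and 21.2 FPKM in EGFP, 20.5 and 22.3 FPKM in CCNY-WT, and 24.1 and 25.0 FPKM in CCNY-shRNA. The knockdown libraries were the highest, with a log2 change of 0.22 (SE 0.08, unadjusted p = 0.0289, adjusted p = 0.209). Limk1 had a log2 change of 0.15 (SE 0.08, adjusted p = 0.368). The p21-activated kinases, effectors of Rac1 and Cdc42, were close to the control, with log2 changes in CCNY-shRNA of -0.02 (95% interval -0.17 to 0.13) for Pak1, -0.03 (-0.25 to 0.19) for Pak2 and -0.03 (-0.26 to 0.21) for Pak3. Those of the RhoA-dependent kinases were 0.02 (-0.24 to 0.28) for Rock1 and 0.07 (-0.09 to 0.22) for Rock2. In CCNY-WT, Pak1 was at 58.2 and 53.5 FPKM and Pak3 at 38.2 and 35.9 FPKM, beside 60.0 and 56.4 FPKM and 37.7 and 41.7 FPKM in EGFP, and neither was set apart from the control.

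**Figure D5:**
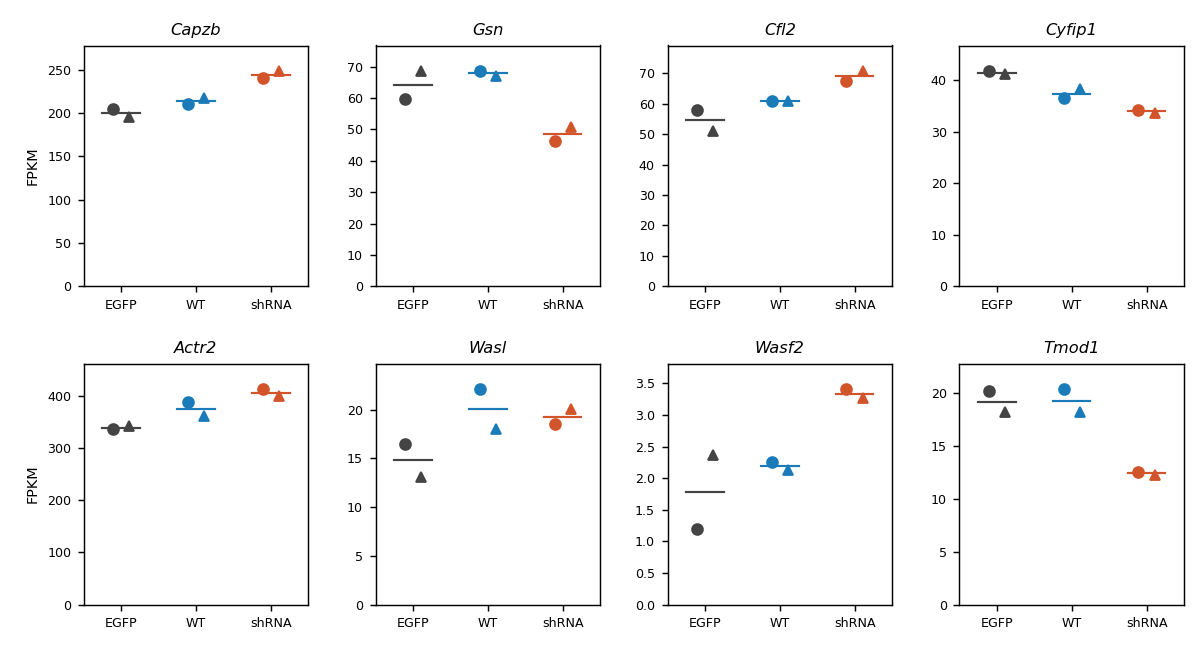
FPKM in each library of 7 actin regulators and of Tmod1, with axes starting at 0, lines at the group means, circles for replicate 1 and triangles for replicate 2 (WT, CCNY-WT; shRNA, CCNY-shRNA). Capzb, Cfl2, Actr2 and Wasf2 are highest and Gsn, Cyfip1 and Tmod1 lowest in both CCNY-shRNA libraries, while Wasl is above EGFP in both conditions.

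In CCNY-WT none of the 39 genes passed the adjusted threshold of limma, where 0.00982% of all genes tested did. At an unadjusted p under 0.05, 4 were higher (Wasl, Arpc4, Arpc5 and Actr2), against 3.83% of all genes tested, and 1 was lower (Cyfip1), against 3.0%. This left 10.3% of the 39 higher and 2.56% lower, and the number higher was 1 without EGFP replicate 2, 1 without CCNY-WT replicate 1 and 2 without CCNY-WT replicate 2. The median log2 change was 0.05, against 0.00 for all genes tested, and was 0.02 without EGFP replicate 2. Of the 39 genes, 29 had a positive change, as did 51.3% of all genes tested and 58.4% of those of at least 100 FPKM. In 14 (35.9%) both CCNY-WT libraries lay above both EGFP libraries, against 20.3% of all genes tested. In 3 (7.69%) both lay below, against 19.2%, and these shares of all genes were not matched for level. Wasl, Wasf2 and Arpc1b had changes of at least 0.3, the study's limit for overexpression, which 4.59% of all genes tested reached upwards and 3.76% downwards. The study had already listed Wasl and Arpc1b as raised in CCNY-WT, from the same libraries at this limit. Their passing was thus known beforehand and is no separate support. The study also measured both genes by qRT-PCR and reported them as regulated by CCNY, and those measurements were not used here.

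The knockdown was also set directly against the overexpression. None of the 39 genes passed the adjusted threshold of limma, against 0.216% of all genes tested. At an unadjusted p under 0.05, 6 were higher in CCNY-shRNA than in CCNY-WT (Arpc5l, Cfl2, Dstn, Pfn1, Capzb and Limk2), against 5.05% of all genes tested, and 3 were lower (Arpc1b, Gsn and Enah), against 7.12%. These made up 15.4% and 7.69% of the 39. The number higher was 0 without CCNY-WT replicate 1, 2 without CCNY-WT replicate 2, 11 without CCNY-shRNA replicate 1 and 2 without CCNY-shRNA replicate 2. The number lower was 1 without CCNY-WT replicate 1 and 1 without CCNY-shRNA replicate 1.

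Other genes of actin biology were read from a list of 174, of which 131 were tested: further WAVE, WASP and nucleation genes, formins, capping and severing factors, filament-binding proteins, myosins and signalling genes. In CCNY-shRNA, 0 rose and 1 fell past the adjusted threshold of limma, and 13 were higher and 16 lower at an unadjusted p under 0.05, shares of 9.92% and 12.2% beside 9.2% and 9.36% of all genes tested. Their median log2 change was -0.01, and 65 of the 131 had a positive change. In CCNY-WT none passed, with a median of -0.02, and 6 were higher and 6 lower at an unadjusted p under 0.05 (4.58% each way, beside 3.83% and 3.0% of all genes). From CCNY-WT to CCNY-shRNA none passed, and 11 were higher and 7 lower (8.4% and 5.34%, beside 5.05% and 7.12% of all genes).

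The gene that fell was Tmod1 (tropomodulin-1, which caps pointed ends). It was at 20.2 and 18.2 FPKM in EGFP, 20.4 and 18.2 FPKM in CCNY-WT, and 12.6 and 12.3 FPKM in CCNY-shRNA. Both knockdown libraries lay far below the other 4, with a log2 change of -0.63 (SE 0.10, 95% interval -0.86 to -0.39, adjusted p = 0.0441). The call was lost with each library left out in turn, but so were most calls over all genes tested, so this loss is not particular to Tmod1. The log2 change was then between -0.70 and -0.55.

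Next in p-value for the knockdown were Ngef and Git1. Ngef (ephexin-1, an exchange factor of RhoA in neurons) was at 48.0 and 48.5 FPKM in EGFP, 46.6 and 47.8 FPKM in CCNY-WT, and 40.4 and 37.2 FPKM in CCNY-shRNA, a log2 change of -0.32 (SE 0.07, adjusted p = 0.0768). Git1 (a scaffold that brings the Rac exchange factor β-PIX to synapses) was at 68.6 and 68.9 FPKM in EGFP, 74.9 and 75.7 FPKM in CCNY-WT, and 81.1 and 80.8 FPKM in CCNY-shRNA, without overlap between the 3 groups, a log2 change of 0.24 (SE 0.05, adjusted p = 0.0826).

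For CCNY-WT the smallest p-values among these genes belonged to Pak6, Pfn3 and Myl6. Pak6, a p21-activated kinase of the second group, was at 64.0 and 65.5 FPKM in EGFP, 74.5 and 78.8 FPKM in CCNY-WT, and 74.7 and 76.2 FPKM in CCNY-shRNA, above the control in all 4 libraries with altered CCNY. Its log2 change was 0.24 (SE 0.06, unadjusted p = 0.00266, adjusted p = 0.583) in CCNY-WT and 0.22 (SE 0.06, unadjusted p = 0.00454, adjusted p = 0.107) in CCNY-shRNA. Myl6, a light chain of non-muscle myosin, was at 966 and 922 FPKM in EGFP, 788 and 819 FPKM in CCNY-WT, and 1011 and 935 FPKM in CCNY-shRNA, lowest in the overexpressing libraries with a log2 change of -0.23 (SE 0.07, unadjusted p = 0.0112, adjusted p = 0.725). Pfn3, a profilin known from testis, was at 0.503 and 0.917 FPKM in EGFP, 1.53 and 2.16 FPKM in CCNY-WT, and 1.23 and 1.30 FPKM in CCNY-shRNA, below the floor of 1 in the control, with a log2 change of 0.86 (SE 0.23, adjusted p = 0.656) in CCNY-WT.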

How the data were processed

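Poly-A RNA was sequenced in 6 libraries, which the labels place in 3 groups of 2. The authors mapped paired-end reads to the rat genome (rn4) with TopHat2 and deposited 1 FPKM value per gene and library from Cufflinks. The submitters' processing notes list TopHat2 2.0, Bowtie2 2.1.0, SAMtools 0.1.19, Cufflinks 2.2.1 and R 3.1.0. The gene annotation, the strand setting and any scaling between libraries are not given in the sources used here. As in the study, log2 was taken of the deposited FPKM values after raising those below 1 to 1, so changes of weakly expressed genes are understated. For the 10188 genes that reached 1 FPKM in at least 2 libraries, limma 3.58.1 in R 4.3.3 (lmFit, contrasts.fit, eBayes with a trend) was fitted over all 6 libraries with group as the only term. P-values are two-sided and were adjusted by the Benjamini-Hochberg method over all genes tested, with a threshold of 0.05. The fit was tested on simulated data with known changes of 1 log2 unit, larger than any change of an actin regulator here. It was thus no test of detection at the sizes reported. FPKM carries no counts, so no count model was used, and relative depth was read from the steps between values of genes under 0.3 FPKM. No 2 libraries held identical values.

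The actin regulators and the other lists were chosen with earlier results of these data known. Named with values were, for each condition, the 5 members with the largest rise, the 5 with the largest fall and the 5 with the smallest p, with Arpc1b, Wasl and Gsn from the study's own pathway list. Of the other actin genes, those past the threshold and the 3 with the smallest p for each condition were named. Further members were added to complete their role groups. Alternatives covered the offset (1 or 0.1 added), the filter, library scaling (upper quartile, median ratio, quantile), eBayes without trend or robust, a fit of only the 2 groups compared, a replicate block and each library left out. Counts at an unadjusted p, counts among genes of at least 100 FPKM and the Actb share without each library were added after seeing the data. Tables and figures were made in Python 3.11.15 (pandas 2.3.3, numpy 2.4.6, matplotlib 3.10.9). Raw reads, cuffdiff calls and protein data were left out. Counts of 1 group of genes are not reported here.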

Additional observations from a re-analysis of the deposited data

How the results depend on the processing

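No actin regulator passed the adjusted threshold in any of the 3 comparisons under the 11 alternatives that leave out no single library. Some of these settings called few genes of any kind, so they could hardly have called an actin regulator. In CCNY-shRNA against EGFP, 0 genes of all tested rose and 1 fell past the threshold with eBayes without trend and with only the 2 groups compared. In CCNY-WT none of these settings called more than 3 genes. With the unadjusted p in place of the adjusted p, 12 actin regulators were higher and 4 lower in CCNY-shRNA. There were 4 higher and 1 lower in CCNY-WT, and 6 higher and 3 lower in CCNY-shRNA against CCNY-WT. Further counts at the unadjusted p that moved were, for CCNY-WT higher, 1 with no filter on low values and 2 with eBayes without trend, for CCNY-WT lower, 0 with upper-quartile scaling, quantile normalization, eBayes without trend and the replicate block, and for CCNY-shRNA against CCNY-WT, 3 higher with eBayes without trend and 5 lower with no filter. Leaving out 1 library gave 1 to 5 higher and 0 to 1 lower in CCNY-WT, and 0 to 11 higher and 1 to 3 lower in CCNY-shRNA against CCNY-WT.

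The other actin gene called down in CCNY-shRNA was Tmod1. It was no longer called (0 genes) with no filter on low values, upper-quartile scaling, eBayes without trend or only the 2 groups compared. Over all genes, 1 rose and 1 fell past the threshold with no filter, and 0 rose and 1 fell with eBayes without trend. The same held with only the 2 groups compared, while upper-quartile scaling called 21 up and 42 down. Tmod1 was also lost with any 1 library left out, as were most calls over all genes. Its adjusted p over the 11 other alternatives was between 0.0357 and 0.184. With the replicate block, 0 of the other actin genes were called, and Tmod1 had an adjusted p of 0.0547. Replicate differences of the groups correlated by 0.0377 to 0.0538, so no strong effect was shared by libraries of the same number. Whether the number marks a shared culture is not given by the labels. The block changed no other call among the actin genes. Over all genes tested it moved the calls in CCNY-shRNA against EGFP from 17 up and 59 down to 8 up and 31 down.

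The median log2 change of the actin regulators in CCNY-shRNA was 0.0646 after quantile normalization and 0.0532 (without EGFP replicate 2) to 0.134 (without EGFP replicate 1) with 1 library left out. In CCNY-WT the latter range was 0.0186 to 0.0676, and in CCNY-shRNA against CCNY-WT it was 0.0393 to 0.0711, with 0.0441 after quantile normalization. Changes of at least 0.33 in CCNY-shRNA were found in 2 to 6 genes. Directions reversed with 1 library left out, in these ranges of log2 change, for Arpc1b (-0.27 to 0.13) and Tmsb4x (-0.0036 to 0.60) in CCNY-shRNA and for Gsn (-0.015 to 0.18), Pak1 (-0.12 to 0.00042) and Wasf2 (-0.11 to 0.88) in CCNY-WT. The cause of these changes was not tested. Of 612 values of named genes under alternatives, 596 kept their direction and their side of the threshold. All named comparisons except Tmod1 in CCNY-shRNA were uncalled in the main fit, so keeping their side meant staying uncalled. As some settings called few genes of any kind, the 596 are no measure of how firm the results are. With 2 libraries a group and no read counts, differences near the replicate spread were not detectable.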
